A study of Mus musculus with 6 samples.

Results

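Arginine is the shared substrate of competing enzymes in macrophages, and 10 mouse genes of its use are described here among the 55335 genes of the deposited count table: Nos2, Arg1, Arg2, Ass1, Asl, Gch1, Odc1, Srm, Sms and Sat1. They were chosen by symbol, each symbol matched a single Ensembl gene, and all 10 passed the filter on low counts with 13901 genes in all. The 6 libraries are polyA RNA of bone marrow-derived macrophages (BMDMs), primary cells grown from mouse marrow with 20 ng/mL of macrophage colony-stimulating factor (M-CSF). In 3 libraries, called PAC-CM-KD, the cells were given, on day 5, medium from damaged acinar cells of the pancreas (conditioned medium, PAC-CM) together with 400 µM kinsenoside, a plant glycoside. In the other 3, called PAC-CM, they received the same medium without kinsenoside. Every library was thus exposed to the conditioned medium, and macrophages without it were not analysed here. The labels give neither the mouse strain and age nor whether replicates came from separate animals or cultures, so each p-value is set by the spread among these libraries alone, and that spread may be technical.

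Inducible nitric oxide synthase, encoded by Nos2, turns arginine into nitric oxide and citrulline, and the citrulline is recycled to arginine by the enzymes of Ass1 and Asl. Arginases, encoded by Arg1 and Arg2, instead split arginine into urea and ornithine, and ornithine feeds the polyamines putrescine, spermidine and spermine. In mouse macrophages Nos2 is a classic marker of inflammatory activation by interferon-gamma and bacterial products, and Arg1 of alternative activation by interleukin-4, although injured tissue can induce both.

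Library totals lay between 41125059 and 43434292 counts in PAC-CM-KD and between 43054066 and 47461702 counts in PAC-CM. Macrophage markers such as Adgre1, Csf1r and Cd68 were abundant, with all 10 symbols of the marker list summing to between 23035 and 25849 counts per 1000000 counts of the library (CPM) in PAC-CM-KD and between 21120 and 23191 CPM in PAC-CM. The 14 acinar cell markers summed to between 5.35 and 8.01 CPM in PAC-CM-KD and between 6.94 and 7.48 CPM in PAC-CM, with Prss1, Amy2a1, Ptf1a and Bhlha15 at 0 in every library. Of the marker lists of other cells, the endothelial one summed to between 63.8 and 110 CPM in PAC-CM-KD and between 60.8 and 80.1 CPM in PAC-CM, mostly Kdr. The neutrophil list, led by S100a8, summed to between 33.4 and 42.9 CPM in PAC-CM-KD and between 31.1 and 40.0 CPM in PAC-CM, with Elane at 0 in all 6 libraries. The T cell list summed to between 7.95 and 14.9 CPM in PAC-CM-KD and between 6.16 and 13.7 CPM in PAC-CM, mostly Cd4, with Cd3d at 0 in all 6 libraries. In each of these 3 lists the ranges of the groups overlapped. PAC-CM-KD replicate 1 stood apart on the second principal component of log2 CPM (23.6% of the variance), at 39.3 against -15.6 to -1.06 in the other PAC-CM-KD libraries and -19.7 to 6.13 in PAC-CM. Values without that library are given below where a result rests on it. In bulk RNA, fewer cells of a type and less RNA per cell cannot be told apart.

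Kinsenoside libraries held less Nos2 and more Arg1 and Arg2 transcript on average, while the citrulline-recycling genes Ass1 and Asl lay at nearly equal levels in both groups. No member passed the threshold: by the quasi-likelihood test of edgeR, adjusted by the Benjamini-Hochberg method over all 13901 tested genes, 0 of the 10 had an adjusted p under 0.05, where 0.511% of all tested genes did. At an unadjusted p under 0.05 there were 5 members (Nos2 lower, and Arg1, Arg2, Odc1 and Sat1 higher), against 14.9% of all tested genes. DESeq2 called 3 of the 10 (Nos2, Arg2 and Odc1) and limma-voom none. Over the whole table DESeq2 called 441 genes and limma-voom 39, against 71 by edgeR, so the 0.511% does not apply to the DESeq2 count. The share of all genes called by DESeq2 is not given here, so its 3 of 10 is not set beside one. The members' median log2 fold change (PAC-CM-KD over PAC-CM) was 0.03, and that of all tested genes -0.01.

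In 4 members (Nos2, Arg2, Odc1 and Sms) the CPM of the groups did not overlap, which held for 22.5% of all tested genes. Nos2 and Sms were lower in all 3 PAC-CM-KD libraries, as were 15.7% of all tested genes, and Arg2 and Odc1 were higher, as were 6.86%. After TMM scaling, which corrects totals for composition, the ranges of Sms overlapped and 3 members were left.

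**Figure D1:**
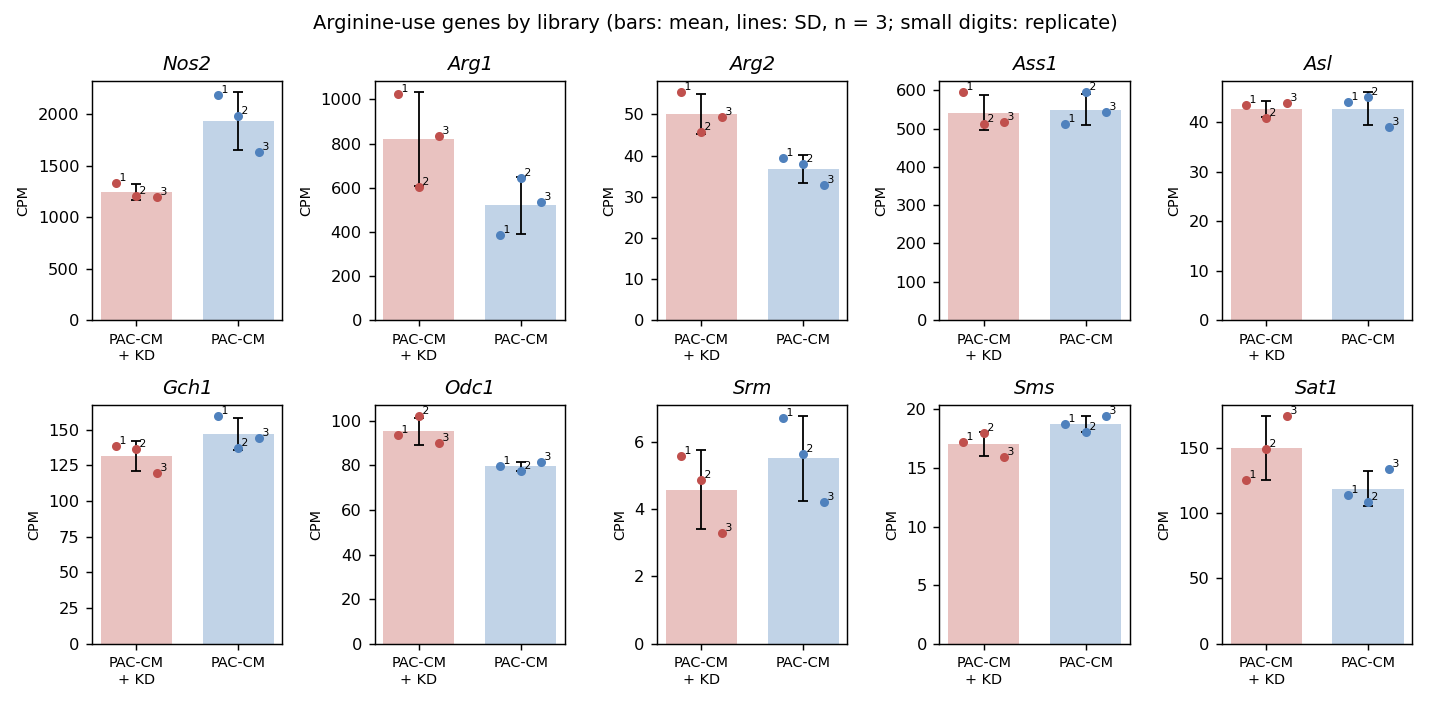
CPM of the 10 genes in each library (points, with the replicate number), with the mean (bar) and SD (line) of 3 PAC-CM-KD (left, red) and 3 PAC-CM (right, blue) libraries. Nos2 is lower in every PAC-CM-KD library (at most 1337 CPM) than in any PAC-CM library (at least 1637 CPM), while the Arg1 points of the groups overlap.

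Nos2 (ENSMUSG00000020826, chromosome 11, 78920787 to 78960254, plus strand, GRCm38) encodes the inducible nitric oxide synthase. Its counts were 58065, 51125 and 49066 in PAC-CM-KD replicates 1 to 3, which is 1337, 1212 and 1193 CPM. In PAC-CM replicates 1 to 3 they were 94160, 94198 and 72199, or 2187, 1985 and 1637 CPM. The groups thus did not overlap. The gap between the lowest PAC-CM and the highest PAC-CM-KD library (1.22-fold) was narrowly the largest step between neighbouring libraries. In fold terms PAC-CM replicates 3 and 2, at 1637 and 1985 CPM, lay nearly as far apart. The mean was 1247 ± 78.2 CPM in PAC-CM-KD and 1936 ± 278 CPM in PAC-CM (SD, n = 3 each), and the log2 fold change was -0.59 (SE 0.105, edgeR adjusted p = 0.0640). By unadjusted p it ranked 91 of the 13901 tested genes. In fold terms PAC-CM-KD held 0.664 times the PAC-CM level, with an unadjusted 95% interval of 0.562 to 0.785. The estimate was negative under all 13 alternatives (-0.69 to -0.49) with adjusted p of 3.91e-05 to 0.230. It passed in 4 of them, without PAC-CM replicate 3 (adjusted p = 0.0451), with DESeq2, with no filter and with the replicate number as a block. Even so, Nos2 remained among the most abundant transcripts in both groups, at rank 171, 175 and 179 by CPM per kb of exon in PAC-CM-KD replicates 1 to 3 and at rank 98, 110 and 131 in PAC-CM replicates 1 to 3.

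Arg1 (ENSMUSG00000019987, chromosome 10, 24915221 to 24927484, minus strand) encodes the cytosolic arginase. It was measured at 1025, 603 and 835 CPM in PAC-CM-KD replicates 1 to 3 and at 384, 642 and 533 CPM in PAC-CM replicates 1 to 3. The ranges overlap, since PAC-CM replicate 2 lay above PAC-CM-KD replicate 2, and the extremes were PAC-CM-KD replicate 1 at the top and PAC-CM replicate 1 at the bottom. Means were 821 ± 211 CPM in PAC-CM-KD and 520 ± 129 CPM in PAC-CM (SD, n = 3 each). The log2 fold change was 0.70 (SE 0.269, edgeR adjusted p = 0.322), the largest among the members, but its unadjusted 95% interval ran from 0.03 to 1.38. Without PAC-CM-KD replicate 1, the library that stood apart, it was 0.51 (adjusted p = 0.465, within 0.212 to 0.535 over the 13 alternatives). Arg1 was also the member that varied most within a group: its SD of log2 CPM was 0.385, above that of 96.5% of the 5782 tested genes that averaged 20 CPM or more, whose median was 0.0981. Nos2 (0.162) lay above 80.4% of them. Every library held at least 16546 counts of Arg1.

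Arg2 (ENSMUSG00000021125, chromosome 12, 79130777 to 79156301, plus strand), the mitochondrial arginase, was a far weaker transcript, at 55.4, 45.8 and 49.4 CPM in PAC-CM-KD replicates 1 to 3 and at 39.4, 37.8 and 32.9 CPM in PAC-CM replicates 1 to 3. All PAC-CM-KD libraries lay above all PAC-CM libraries. With 50.2 ± 4.85 CPM in PAC-CM-KD and 36.7 ± 3.36 CPM in PAC-CM (SD, n = 3 each), the log2 fold change was 0.50 (SE 0.0967, edgeR adjusted p = 0.0771), or 0.42 (adjusted p = 0.101, within 0.00203 to 0.240 over the 13 alternatives) without PAC-CM-KD replicate 1. DESeq2 was the alternative under which it passed. Its 3′ end shares 285 bases with Vti1b, a gene for vesicle fusion on the opposite strand, out of 1428 exonic bases of Arg2. The sources used here do not state whether the counting used strand, so reads of those bases cannot be assigned with certainty. Vti1b itself had 66.5 ± 3.89 CPM in PAC-CM-KD and 60.5 ± 1.15 CPM in PAC-CM (SD, n = 3 each; log2 fold change 0.18, edgeR adjusted p = 0.270), and its part in the Arg2 value was not tested.

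The arginase genes are distinct in sequence: their aligned coding bases were 64.9% identical, and no stretch of at least 200 bases reached 95% identity between them. Per kb of exon, Arg1 made up 92.2%, 89.4% and 91.6% of the arginase transcripts in PAC-CM-KD replicates 1 to 3 and 86.2%, 91.6% and 91.2% in PAC-CM replicates 1 to 3, so it was the main arginase transcript in every library.

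The balance of Nos2 and Arg1 within a library does not depend on how libraries are scaled to each other. The count ratio of Nos2 to Arg1 was 1.30, 2.01 and 1.43 in PAC-CM-KD replicates 1 to 3, against 5.69, 3.09 and 3.07 in PAC-CM replicates 1 to 3. All PAC-CM-KD ratios lay below all PAC-CM ratios. The mean log2 ratio was 0.63 ± 0.33 in PAC-CM-KD and 1.92 ± 0.51 in PAC-CM (SD, n = 3 each), a difference of -1.28, or a ratio 0.411 times that of PAC-CM. An exact two-sided permutation test over the 6 libraries gave p = 0.1, the smallest that 3 against 3 allows, so this design could not take the ratio past 0.05. With 1 library left out the difference lay between -1.47 and -0.99. For Ass1 to Arg1 the ratios were 0.580, 0.850 and 0.619 in PAC-CM-KD replicates 1 to 3 and 1.33, 0.926 and 1.02 in PAC-CM replicates 1 to 3, again without overlap (difference -0.68 on the log2 scale, exact permutation p = 0.1). With 1 library left out that difference lay between -0.85 and -0.53. For Odc1 to Arg1 the groups overlapped (difference -0.40, exact permutation p = 0.3), and the difference was -0.20 without PAC-CM replicate 1, -0.21 without PAC-CM-KD replicate 1 and -0.65 without PAC-CM-KD replicate 2. The 3 ratios share Arg1 and were the only ones computed; adjusted over them by Benjamini-Hochberg the p-values were 0.15, 0.15 and 0.3.

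**Figure D2:**
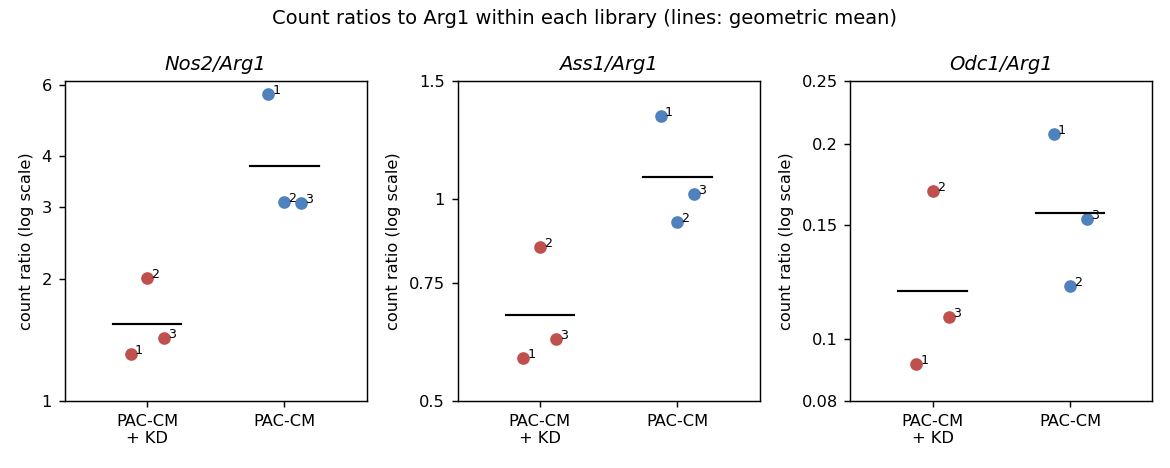
Counts of Nos2, Ass1 and Odc1 divided by those of Arg1 in each library, on log axes (points, with the replicate number; lines, geometric means) for 3 PAC-CM-KD (left) and 3 PAC-CM (right) libraries. The Nos2 ratios sit between 1.30 and 2.01 in PAC-CM-KD and between 3.07 and 5.69 in PAC-CM.

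The genes that recycle citrulline differed little. Ass1 (ENSMUSG00000076441, chromosome 2, 31470207 to 31520672, plus strand) encodes argininosuccinate synthetase, which joins citrulline to aspartate. It was at 594, 513 and 516 CPM in PAC-CM-KD replicates 1 to 3 and at 512, 594 and 543 CPM in PAC-CM replicates 1 to 3, with fully overlapping ranges. The means were 541 ± 46.1 CPM in PAC-CM-KD and 550 ± 41.5 CPM in PAC-CM (SD, n = 3 each), and the log2 fold change after TMM scaling was 0.02, with an unadjusted 95% interval of -0.17 to 0.21 (edgeR adjusted p = 0.940). A processed pseudogene, Gm5424, matches Ass1 at 99.5% identity over 1240 bases and held between 3009 and 3969 counts, so part of the Ass1 reads may be counted there. With its counts added, between 11.9% and 12.6% of the sum in every library, the log2 fold change of Ass1 was again 0.02. Asl (ENSMUSG00000025533, chromosome 5, 130011258 to 130029247, minus strand), the argininosuccinate lyase that releases arginine, had 42.8 ± 1.63 CPM in PAC-CM-KD and 42.8 ± 3.28 CPM in PAC-CM (SD, n = 3 each). Its log2 fold change was 0.04, with an unadjusted 95% interval of -0.13 to 0.22 (edgeR adjusted p = 0.843).

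Gch1 (ENSMUSG00000037580, chromosome 14, 47153895 to 47189413, minus strand) encodes GTP cyclohydrolase, the first and rate-limiting enzyme of tetrahydrobiopterin synthesis, a cofactor that nitric oxide synthases need. It lay at 139, 136 and 120 CPM in PAC-CM-KD replicates 1 to 3 and at 160, 137 and 144 CPM in PAC-CM replicates 1 to 3. Only PAC-CM replicate 2 fell inside the PAC-CM-KD range. The log2 fold change was -0.12 (SE 0.0819, unadjusted 95% interval -0.30 to 0.07, edgeR adjusted p = 0.563), so a fall as deep as that estimated for Nos2 lay outside the interval of Gch1. Whether the estimates of both genes differ was not tested.

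Of the polyamine genes, the estimates of Odc1 and Sat1, which start synthesis and breakdown, lay above 0, and those of the spermidine and spermine synthases below. Odc1 (ENSMUSG00000011179, chromosome 12, 17544794 to 17551505, plus strand) encodes ornithine decarboxylase, which makes putrescine from ornithine. Its levels were 93.6, 102 and 90.2 CPM in PAC-CM-KD replicates 1 to 3 and 79.6, 77.5 and 81.6 CPM in PAC-CM replicates 1 to 3, so every PAC-CM-KD library lay higher. The log2 fold change was 0.30 (SE 0.0669, edgeR adjusted p = 0.0982), the mean being 95.3 ± 6.10 CPM in PAC-CM-KD and 79.6 ± 2.08 CPM in PAC-CM (SD, n = 3 each). Odc1 was a steady transcript, with an SD of log2 CPM within groups of 0.0640, above that of 23.3% of the genes of at least 20 CPM. At 95% identity or more over at least 200 bases it matches 7 other genes, mostly processed pseudogenes, here called near-identical copies. Some match only a part of Odc1. AW146154, a processed transcript with up to 178 counts in a library, matches over 500 bases. Together the 7 held between 243 and 296 counts per library. With these added the log2 fold change was 0.29 (edgeR adjusted p = 0.109).

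Sat1 (ENSMUSG00000025283, chromosome X, 155213132 to 155216449, minus strand) encodes spermidine/spermine acetyltransferase, which marks polyamines for oxidation or export. Its values were 125, 149 and 174 CPM in PAC-CM-KD replicates 1 to 3 and 114, 109 and 134 CPM in PAC-CM replicates 1 to 3. PAC-CM replicate 3 exceeded PAC-CM-KD replicate 1, so the groups overlapped. The mean was 150 ± 24.4 CPM in PAC-CM-KD and 119 ± 13.3 CPM in PAC-CM (SD, n = 3 each), and the log2 fold change 0.38 (SE 0.131, edgeR adjusted p = 0.243). Without PAC-CM-KD replicate 3 it was 0.25 (adjusted p = 0.417) and without PAC-CM-KD replicate 1 it was 0.49 (adjusted p = 0.101), within adjusted p of 0.101 to 0.514 over the 13 alternatives.

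Srm and Sms encode the synthases of spermidine and spermine and were the weakest members. Srm (ENSMUSG00000006442, chromosome 4, 148591503 to 148594993, plus strand) had 242, 205 and 135 counts in PAC-CM-KD replicates 1 to 3 and 288, 267 and 185 in PAC-CM replicates 1 to 3, that is 4.57 ± 1.17 CPM in PAC-CM-KD and 5.50 ± 1.25 CPM in PAC-CM (SD, n = 3 each). The ranges overlapped, and the unadjusted 95% interval of the log2 fold change of -0.22 reached from -0.75 to 0.31 (edgeR adjusted p = 0.710). Sms (ENSMUSG00000071708, chromosome X, 157443855 to 157492287, minus strand) was at 17.20, 17.96 and 15.95 CPM in PAC-CM-KD replicates 1 to 3 and at 18.79, 18.04 and 19.40 CPM in PAC-CM replicates 1 to 3. The highest PAC-CM-KD and the lowest PAC-CM library nearly touched, with a log2 fold change of -0.09 (unadjusted 95% interval -0.28 to 0.10, edgeR adjusted p = 0.652). The pseudogene Sms-ps is identical to Sms over 1101 bases, and with 3 near-identical copies added, which held between 77 and 149 counts, the value was -0.13.

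**Figure D3:**
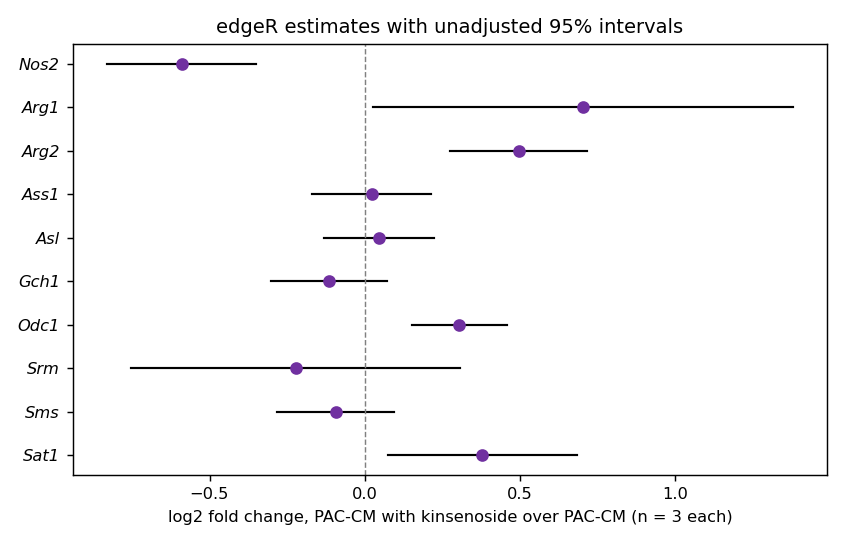
Log2 fold change of each gene, PAC-CM-KD over PAC-CM, as estimated by edgeR (points) with unadjusted 95% intervals (lines), from 3 libraries per group. The intervals of Nos2 (below 0) and of Arg1, Arg2, Odc1 and Sat1 (above 0) leave out 0 before adjustment, and none of the 10 passed after it.

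RefSeq upstream windows (GRCm38.p6) were at hand for 5 members. They are printed for Gch1, the cofactor gene, and for the polyamine genes Odc1, Sat1 and Sms, whose estimates pointed in different directions. Each runs 5′ to 3′ on the gene's own strand over up to 250 bases before the RefSeq start and ends where the GENCODE M21 gene begins, which leaves 171 bases for Odc1. Capitals mark matches to 7 motifs searched on both strands: the TATA box (read as TATAAA), the box spelled CCAAT, the GC box (GGGCGG), the E-box that Myc and related factors bind (CACGTG), the cyclic AMP response element or CRE (TGACGTCA), a STAT motif (TTCNNNGAA) and the NF-kB motif.
Gch1, chr14:47189414-47189663, minus strand: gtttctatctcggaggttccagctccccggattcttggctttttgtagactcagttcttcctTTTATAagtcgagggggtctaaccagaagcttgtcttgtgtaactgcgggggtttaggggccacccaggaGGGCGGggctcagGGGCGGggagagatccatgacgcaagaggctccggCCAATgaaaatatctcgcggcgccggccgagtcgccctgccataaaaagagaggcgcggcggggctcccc
Odc1, chr12:17544623-17544793, plus strand: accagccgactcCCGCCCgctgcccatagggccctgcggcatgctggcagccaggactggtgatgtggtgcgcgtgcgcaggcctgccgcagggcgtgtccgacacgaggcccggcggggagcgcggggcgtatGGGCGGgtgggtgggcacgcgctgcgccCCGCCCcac
Sat1, chrX:155216450-155216699, minus strand: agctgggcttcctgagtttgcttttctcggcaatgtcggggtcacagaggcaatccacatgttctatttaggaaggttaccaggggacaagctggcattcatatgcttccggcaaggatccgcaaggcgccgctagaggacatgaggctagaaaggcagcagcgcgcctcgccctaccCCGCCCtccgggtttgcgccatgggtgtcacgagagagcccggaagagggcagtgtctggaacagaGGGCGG
Sms, chrX:157492288-157492537, minus strand: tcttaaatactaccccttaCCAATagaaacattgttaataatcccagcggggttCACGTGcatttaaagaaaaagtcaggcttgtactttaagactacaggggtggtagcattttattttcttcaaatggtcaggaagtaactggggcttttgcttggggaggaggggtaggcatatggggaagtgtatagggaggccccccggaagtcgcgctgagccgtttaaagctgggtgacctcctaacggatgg

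The GC box matched 2 times in Gch1, 2 times in Sat1 and 3 times in Odc1; 32.7% of all RefSeq windows held it over 250 bases and 19.6% over 171 bases. The CCAAT box matched once in Gch1 and once in Sms (33.8% of windows), the TATA box once in Gch1, on the opposite strand (12.4%), and the E-box once in Sms (6.0%). The CRE, STAT and NF-kB letters had no match in these 4 windows, with 1.5%, 7.0% and 0.4% of all 250-base windows holding them. The fifth window, of Ass1, matched none of the motifs over 187 bases. These matches describe the letters alone.

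Per kb of exon, Nos2, Arg1 and Ass1 led in every library, and the order among them differed between the groups. In PAC-CM-KD, Arg1 (271 to 460 CPM per kb) and Nos2 (270 to 303) overlapped, with Ass1 (212 to 246) below both. In PAC-CM, Nos2 (371 to 496) stood above Arg1 (172 to 288) and Ass1 (212 to 246), and those 2 overlapped. This order depends on the length used, since the exon length of Arg1 (2228 bases) includes models that retain introns. Over the transcript of the longest coding sequence (1477 bases for Arg1 and 4192 for Nos2), Arg1 (408 to 694) lay above Nos2 (285 to 319) in PAC-CM-KD, and in PAC-CM Nos2 (390 to 522) and Arg1 (260 to 435) overlapped. By either length Sat1 came next, and Srm and Sms came last. On exon length, Sat1 lay at 45.2 to 62.8 CPM per kb in PAC-CM-KD and 39.2 to 48.2 in PAC-CM, above Arg2, Odc1 and Gch1 in both groups. On that length Arg2, Gch1 and Odc1 overlapped each other in PAC-CM, between 22.0 and 27.6 CPM per kb, while in PAC-CM-KD they lay in the order Arg2, Odc1, Gch1 without overlap. Over the other length their order turned round. In PAC-CM-KD Gch1 (43.1 to 50.1) and Odc1 (40.8 to 46.2) then overlapped and lay above Arg2 (32.1 to 38.8), and in PAC-CM Gch1 (49.5 to 57.5), Odc1 (35.1 to 37.0) and Arg2 (23.1 to 27.6) stood apart. Asl (8.48 to 9.11 in PAC-CM-KD and 8.08 to 9.34 in PAC-CM) was far below its partner Ass1.

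**Figure D4:**
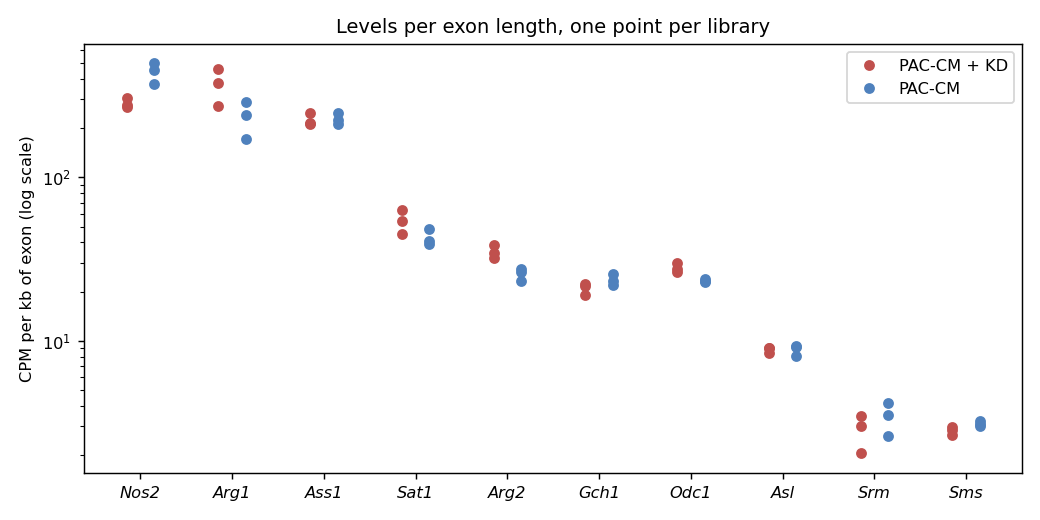
Levels of the 10 genes in CPM per kb of exon on a log axis, with 1 point per library (red, PAC-CM-KD, left of each pair; blue, PAC-CM), ordered by the PAC-CM mean. Nos2, Arg1 and Ass1 lie at 172 or higher in every library, and Srm and Sms at 4.18 or lower.

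All 10 genes together took 0.344%, 0.282% and 0.304% of the counts in PAC-CM-KD replicates 1 to 3 and 0.355%, 0.365% and 0.317% in PAC-CM replicates 1 to 3. Within that sum Nos2 held 38.9% to 42.9% in PAC-CM-KD and 51.7% to 61.7% in PAC-CM, and Arg1 21.4% to 29.8% in PAC-CM-KD and 10.8% to 17.6% in PAC-CM. The groups did not overlap in either share, which are parts of one sum and so not independent.

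Across 55 other tested genes of arginine, nitric oxide and polyamine metabolism, 1 fell, none rose, and 54 did not pass; their median log2 fold change was -0.03. Of all tested genes 0.302% fell. In 16 of the 55 the groups did not overlap, against 22.5% of all tested genes. The gene that fell was Gatm, which encodes the amidinotransferase that moves the guanidino group of arginine onto glycine, the first step of creatine synthesis. Its counts were 1014, 915 and 1000 in PAC-CM-KD replicates 1 to 3 and 1440, 1778 and 1521 in PAC-CM replicates 1 to 3, a clear separation. It had 23.1 ± 1.33 CPM in PAC-CM-KD and 35.1 ± 2.09 CPM in PAC-CM (SD, n = 3 each) and a log2 fold change of -0.56 (SE 0.0810, edgeR adjusted p = 0.0338). The call was kept in 5 of 13 alternatives and lost without any 1 of the PAC-CM libraries, without PAC-CM-KD replicate 2 or 3, and with non-robust estimates, with limma-voom and with the block, the adjusted p reaching 0.139. Gamt, which completes creatine, and the creatine transporter gene Slc6a8 had -0.05 and -0.06.

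Of 6 tested arginine transport genes, none passed and 3 estimates lay above 0. Slc7a2 encodes the cationic amino acid transporter that activated macrophages use to import arginine. It had 1570 ± 96.2 CPM in PAC-CM-KD and 1968 ± 172 CPM in PAC-CM (SD, n = 3 each), without overlap (log2 fold change -0.28, edgeR adjusted p = 0.162). Slc7a6, a light chain of an exchanger of cationic and neutral amino acids, had 0.42 (adjusted p = 0.280). In the tetrahydrobiopterin list 5 genes were tested and none passed. Pts, the enzyme after GTP cyclohydrolase, had -0.55 (edgeR adjusted p = 0.187), without overlap between the groups. Among 10 tested genes of the other nitric oxide synthases and their controls none passed. Nostrin, an adaptor that binds the endothelial synthase, had -0.48 (edgeR adjusted p = 0.0899) and Calm3, a calmodulin gene, -0.15, while the genes of the neuronal and endothelial synthases, Nos1 and Nos3, had at most 11 and 9 counts per library and were not tested.

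Ornithine can also leave the arginase path for proline and glutamate. All 6 tested genes of that list had estimates below 0 and none passed, with a median of -0.22. Of all tested genes 48.9% had an estimate above 0. Aldh18a1, which makes the shared intermediate from glutamate, had -0.29 and Prodh, which degrades proline, -0.75 (edgeR adjusted p = 0.270 and 0.320), both without overlap. Prodh was a weak transcript, with only 18 to 49 counts per library. Oat, the aminotransferase that connects ornithine to this path, had -0.10. Of the mitochondrial ornithine and urea cycle genes, Slc25a15, the ornithine carrier, was the 1 tested (0.09, edgeR adjusted p = 0.869), and the liver enzymes Cps1 and Otc were at 0 counts in all 6 libraries.

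Among 11 tested genes of polyamine synthesis and its control, none passed, 6 estimates lay above 0 and the median was 0.02. Azin1, the antizyme inhibitor that protects ornithine decarboxylase from degradation, had 292 ± 35.8 CPM in PAC-CM-KD and 229 ± 19.1 CPM in PAC-CM (SD, n = 3 each), without overlap (log2 fold change 0.39, edgeR adjusted p = 0.128). Mtap, which salvages the methylthio by-product of the synthases, had -0.48 (adjusted p = 0.206). Of 6 tested genes of polyamine breakdown and transport none passed, and the median was -0.15. Estimates lay above 0 in 2 of the 6, which are the 2 named next. Atp13a3, a polyamine transporter of the P-type ATPase family, had 0.36 (edgeR adjusted p = 0.0866; no overlap), and Smox, spermine oxidase, 0.22 (adjusted p = 0.332). Hypusine, a residue built from spermidine, is found in the translation factor of Eif5a, whose log2 fold change was 0.32 (edgeR adjusted p = 0.334). Dhps, which carries out the first step of hypusine formation, had -0.17 (edgeR adjusted p = 0.366). None of the 5 tested identifiers of that list passed. In the list on arginine sensing 2 genes were tested. Slc38a9 had 0.04, and Bmt2, which does not itself sense arginine, had 0.08.

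**Figure D5:**
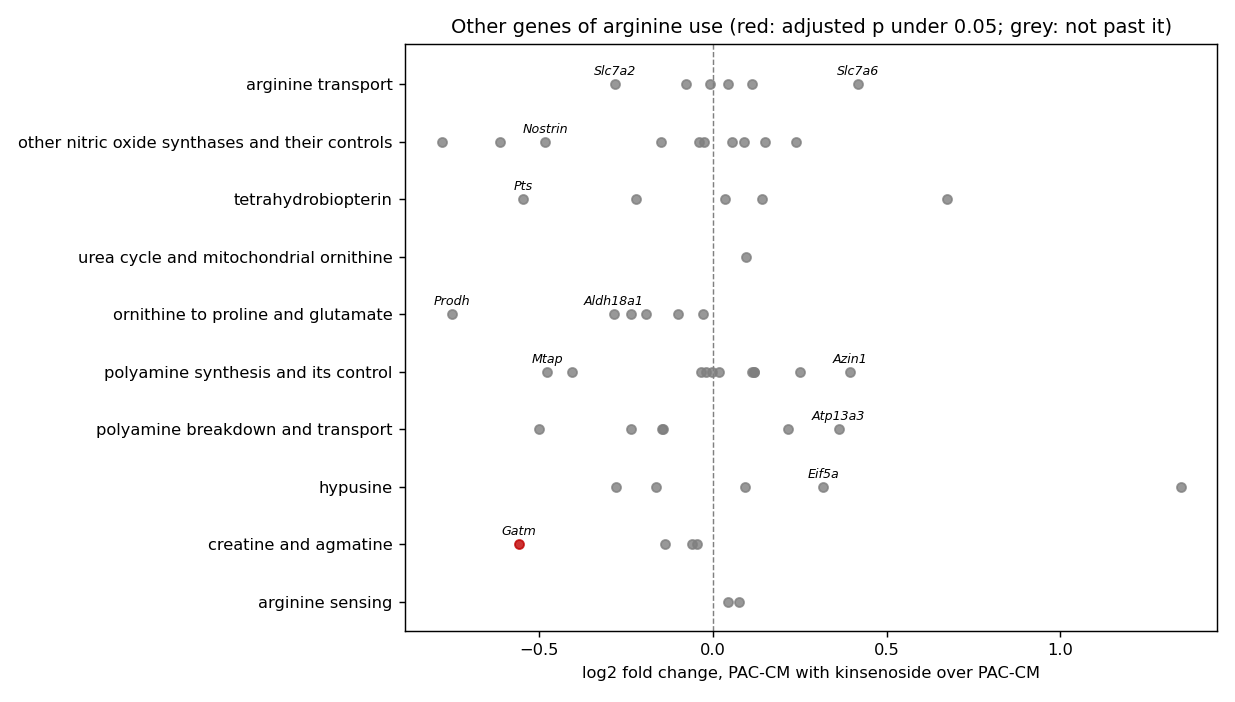
Log2 fold changes, PAC-CM-KD over PAC-CM, of the other tested genes of arginine use by list, 1 point per gene (edgeR, 3 libraries per group). Gatm at -0.56 is the single gene with an adjusted p under 0.05 (red). The 6 tested genes of the list on ornithine, proline and glutamate, which do not all act in 1 direction of that path, lie below 0. The far right point of the hypusine list is a second Dohh identifier with 0 to 42 counts.

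Among 13 tested factors and receptors known to induce mouse Nos2, Irf1 fell and 12 did not pass, where 0.302% of all tested genes fell. The list was chosen with earlier results of these data known, so it is no independent test of Nos2. Irf1, a transcription factor needed for Nos2 induction by interferon-gamma, had 84.3 ± 2.75 CPM in PAC-CM-KD and 153 ± 8.30 CPM in PAC-CM (SD, n = 3 each; log2 fold change -0.81, edgeR adjusted p = 0.00248, and passed under all 13 alternatives). The median of the list was -0.09, with 5 estimates above 0. Tlr4, named after its values were seen, jumped between libraries, with 4663, 873 and 4701 counts in PAC-CM-KD replicates 1 to 3 and 756, 837 and 1025 in PAC-CM replicates 1 to 3; no member had a step over 1.39-fold between neighbouring libraries. Of 11 tested inducers of Arg1 none passed (median 0.03). Pparg, a lipid-sensing nuclear receptor, had 0.57 without overlap and Il10rb, a subunit of the interleukin-10 receptor, 0.13 (edgeR adjusted p = 0.188 and 0.328). In the Myc network, which acts on Odc1 and Srm, none of 5 passed; Max had 0.28 and Mxd1 -0.17 (edgeR adjusted p = 0.236 and 0.449), and Myc had at most 50 counts per library.

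The list of classical activation holds Nos2. Of its 14 tested genes, Il1b and Cxcl10 fell (log2 fold change -0.60 and -0.92, edgeR adjusted p = 0.0152 and 0.00482), none rose and 12 did not pass (median -0.16). In that list 6 of the 14 estimates lay above 0, among them Cxcl9 at 0.36 without overlap between the groups (edgeR adjusted p = 0.276). Among all tested genes 0.302% fell and 0.209% rose. The list of alternative activation holds Arg1. Of its 10 tested genes, the mannose receptor gene Mrc1 rose (0.66, edgeR adjusted p = 0.0316), none fell and 9 did not pass (median 0.23). Estimates lay above 0 in 7 of the 10. The call of Mrc1 was lost without any 1 of the PAC-CM libraries, without PAC-CM-KD replicate 3, and with limma-voom, non-robust estimates and the block, and that of Il1b without any 1 of the PAC-CM libraries and without PAC-CM-KD replicate 2, with adjusted p reaching 0.127 and 0.0824. Retnla, the resistin-like gene that interleukin-4 induces together with Arg1, was at 0 counts in all 6 libraries, and Chil3 had between 17 and 113.

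Across the 6 libraries, the genes whose log2 CPM was most like that of Nos2 among the 9154 genes averaging 5 CPM or more were Fam102a, Gpr132, Asb8, Emilin1 and Dym (Pearson r 0.990 to 0.993). For Arg1 they were Cfp, Oaz1, Ndufa3, C1qb and Scaf8 (r 0.985 to 0.994). Of the 9154 genes, 90 exceeded 0.95 for Nos2 and 38 for Arg1, so the genes named are the top of longer lists. With only 6 libraries these values are a description, and for Nos2 a difference between the treatment groups alone can raise r. Cfp and C1qb encode the complement proteins properdin and a chain of C1q. Cfp followed the order of Arg1 with a narrower range, at 329, 242 and 278 CPM in PAC-CM-KD replicates 1 to 3 and 196, 258 and 229 CPM in PAC-CM replicates 1 to 3.

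Oaz1 encodes antizyme, which binds ornithine decarboxylase and directs it to the proteasome. It had 79.1 ± 3.21 CPM in PAC-CM-KD and 75.5 ± 2.81 CPM in PAC-CM (SD, n = 3 each; log2 fold change 0.11, edgeR adjusted p = 0.472). Antizyme is made by a ribosomal frameshift at a stop codon that polyamines promote, a step that transcript counts do not show. That stop codon is printed in capitals within 42 bases of an Oaz1 transcript model (GENCODE M21, chromosome 10).
Oaz1: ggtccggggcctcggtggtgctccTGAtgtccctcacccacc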

How the data were processed

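Counts per Ensembl gene were used as deposited by the authors, 1 column per library. Per the submitters' processing notes, which give no role or order, STAR, StringTie 1.3.1c, bcl2fastq 2.20, DESeq2 1.16.1, FastQC 0.11.2 and the build GRCm38 were used. The counter and its strand setting are not given in the sources used here.

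Groups were compared with edgeR 4.0.16 in R 4.3.3 by filterByExpr, TMM, robust quasi-likelihood fits on group alone with 4 residual degrees of freedom, two-sided, Benjamini-Hochberg over 13901 genes, threshold 0.05. CPM are counts per 1000000 counts of the library, as mean ± SD. Log2 CPM used TMM factors (0.979 to 1.019) and a prior count of 2. A count of 3 is 0.0632 to 0.0729 CPM, which covers counting error only. Standard errors were taken from the F statistic (estimate over its square root). Coordinates, lengths and transcripts are from GENCODE M21 (GRCm38), copies from BLAST 2.17.0 (at least 95% identity over 200 bases) and alignments from Biopython 1.88. DESeq2 1.42.0 and limma-voom (limma 3.58.1) were alternatives. The edgeR script was tested on simulated data.

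Members and lists were chosen with earlier results of these data known. Named from each list were the genes with an adjusted p under 0.05, or else the 2 of smallest p; other names illustrate a count or a role and were added afterwards. Some items that this rule names are not reported here.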

Additional observations from a re-analysis of the deposited data

How the results depend on the processing

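The number of genes called was 71 by edgeR, 441 with DESeq2, 39 with limma-voom, 36 with non-robust estimates and between 13 and 98 with 1 library left out (20 and 37 without PAC-CM-KD replicates 2 and 3, and 13, 26 and 14 without PAC-CM replicates 1 to 3). Of the 10 members, 0 were called by edgeR, 3 with DESeq2, 1 with no filter and 0 to 1 with a library left out. That 1 was Nos2, with log2 fold changes of -0.59 with DESeq2 and with no filter, and of -0.69 to -0.49 with a library left out. Calls among the other pathway genes numbered 1 by edgeR, 5 with DESeq2, 0 with limma-voom and with non-robust estimates, and 0 to 1 with a library left out. Among regulators of Nos2 and Arg1 they numbered 1, or 2 with DESeq2 and with no filter, and 1 to 2 with a library left out. Among macrophage state markers they numbered 3, or 6 with DESeq2, 5 with no filter and 1 to 3 with a library left out. No share of all genes called is given for the alternatives, so their counts are not set beside one. Members without overlap numbered 4, and 4 to 7 with a library left out. Groups separate more easily with fewer libraries. The share of all tested genes is given only for all 6 libraries (22.5%), so the higher counts say nothing particular about the members. The estimate of Ass1 changed sign without PAC-CM-KD replicate 1 (-0.051) and without PAC-CM replicate 1 (-0.027), in a range of -0.051 to 0.086 with a library left out, and that of Asl without PAC-CM replicate 3 (-0.013), in a range of -0.013 to 0.089. Adding the counts of near-identical copies, chosen after seeing the data, changed no call among these results. The cause of these changes was not tested.

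The replicate numbers were not shown to pair the samples: deviations from the group means correlated at 0.01, -0.10 and 0.13 for numbers 1 to 3, and PAC-CM-KD replicates 1 and 2 correlated best with another number. With the replicate block 42 genes were called, 1 member (Nos2, -0.58, adjusted p = 0.0497) and 0 other pathway genes, and the ratio of Nos2 to Arg1 had an exact p of 0.25, the smallest that 3 pairs allow.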
